A study of Mus musculus with 18 samples.

Results

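Expression of 10 genes of bone formation was compared between *Atrx* WT and *Atrx* KO mesenchymal progenitor cells (MPCs): the transcription factors *Runx2*, *Sp7*, *Dlx5* and *Msx2*, and the matrix and mineralization genes *Alpl*, *Phex*, *Spp1*, *Ibsp*, *Bglap* and *Sparc*. They were taken by symbol, through the Entrez identifier of each row, and all 10 had a row in both count tables, among 24100 gene rows in all. The cells are C3H/10T1/2 (CCL-226), a multipotent mouse embryo line. The WT line received the Cas9 vector without a guide, and sg5 (G7) and sg6 (B10) are single KO clones, 1 for each of 2 sgRNAs against *Atrx*, grown from single cells after transient transfection with Cas9 and the guide. No osteogenic medium is named for any of these cultures, so WT, sg5 and sg6 differ by guide and clone only as far as the labels tell. Each line gave 3 polyA-selected and 3 rRNA-depleted libraries, 18 in total. With 1 line per group, n = 3 counts libraries of that line, so p-values measure only the spread between these libraries, and the effect of *Atrx* loss cannot be told apart from whatever else differs between the lines.

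Bone-forming cells are specified by a short chain of transcription factors. RUNX2 commits a mesenchymal cell to the osteoblast lineage, SP7 (osterix) acts after it, and DLX5 and MSX2 are homeodomain proteins induced by bone morphogenetic proteins (BMPs), with DLX5 known mainly as an activator and MSX2 as a repressor of osteoblast genes such as osteocalcin. The products these factors control build and mineralize the matrix: ALPL (tissue-nonspecific alkaline phosphatase) removes the mineralization inhibitor pyrophosphate, PHEX is a membrane endopeptidase whose loss causes X-linked hypophosphatemia, SPP1 (osteopontin), IBSP (bone sialoprotein) and BGLAP (osteocalcin) are secreted proteins that bind mineral, and SPARC (osteonectin) binds collagen and calcium and is made by many connective tissue cells.

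The 200 bases before a start listed by RefSeq are shown for 5 members, since these genes either changed in the KO clones (*Phex*, *Msx2*) or are textbook cases of RUNX and homeodomain binding (*Spp1*, *Bglap*, *Runx2*). Sequences are from RefSeq for GRCm38.p6, which held an entry for 8 of the 10 members (not *Sp7* or *Dlx5*), and *Spp1* is shown for the first of its 2 listed starts. Capitals mark ACCACA, the RUNX core, and TAATTG, a core shared by MSX and DLX proteins, each searched on both strands. The windows are chrX:157415287-157415486 for *Phex*, chr13:53472781-53472980 for *Msx2*, chr3:88384467-88384666 for *Bglap* and chr17:44814628-44814827 for *Runx2*, all on the minus strand, and chr5:104434911-104435110 on the plus strand for *Spp1*.
Phex: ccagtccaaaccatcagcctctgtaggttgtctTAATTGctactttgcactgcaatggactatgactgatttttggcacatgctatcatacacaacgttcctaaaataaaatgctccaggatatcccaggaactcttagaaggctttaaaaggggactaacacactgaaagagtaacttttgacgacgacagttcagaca
Msx2: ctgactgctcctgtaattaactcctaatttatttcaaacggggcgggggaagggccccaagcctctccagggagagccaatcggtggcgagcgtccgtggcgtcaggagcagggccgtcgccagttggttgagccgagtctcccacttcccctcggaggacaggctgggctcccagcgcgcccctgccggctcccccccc
Spp1: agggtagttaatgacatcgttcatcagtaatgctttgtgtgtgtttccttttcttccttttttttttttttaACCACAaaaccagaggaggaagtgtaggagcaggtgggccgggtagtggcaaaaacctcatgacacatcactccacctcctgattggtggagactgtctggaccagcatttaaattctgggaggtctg
Bglap: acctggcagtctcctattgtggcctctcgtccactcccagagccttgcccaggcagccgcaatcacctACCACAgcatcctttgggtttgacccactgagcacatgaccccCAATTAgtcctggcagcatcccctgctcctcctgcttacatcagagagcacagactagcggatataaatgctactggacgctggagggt
Runx2: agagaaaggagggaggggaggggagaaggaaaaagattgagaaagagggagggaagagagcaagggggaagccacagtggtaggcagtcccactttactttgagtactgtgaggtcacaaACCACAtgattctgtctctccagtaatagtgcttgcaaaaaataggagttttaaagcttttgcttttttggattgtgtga
The RUNX core began 128 bases before the start of *Spp1*, 132 before that of *Bglap* and 80 before the start listed for *Runx2*, which lies inside the gene, so that most of its window falls within the annotated locus. The MSX and DLX core began 89 bases before the start of *Bglap*, on the reverse strand, and 167 before that of *Phex*. *Msx2* held neither in this window. Over the 250 bases before the start, the RUNX core was found in 3 of the 8 members with an entry (*Runx2*, *Spp1*, *Bglap*) and in 14.0% of all 32851 promoters, and the MSX and DLX core in 3 (*Phex*, *Ibsp*, *Bglap*) and in 7.17% of all promoters. These are matches of letters and were not tested for binding.

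Library totals, in units of 1e6 counts, spanned 27.5 to 80.8 for WT, 161 to 235 for sg5 and 58.9 to 71.9 for sg6 with polyA selection, and 20.1 to 33.2 over the rRNA-depleted libraries, so rare transcripts were read more precisely in the polyA libraries of sg5. *Atrx* RNA was 276, 297 and 328 counts per 1e6 counts of the library (CPM) in the polyA WT libraries and 114 to 141 CPM in the clones, a log2 fold change of -1.24 ± 0.10 (SE) in sg5 and -1.2 ± 0.10 in sg6, so RNA of the targeted gene was reduced and still present. A single library lay nearer to another line than to its own. In rRNA-depleted RNA, sg5 replicate 1 lay closer to sg6 replicate 1 (root mean square difference of 0.615 in log2 CPM over 13289 genes) than to either other sg5 library (0.670 and 0.705), whereas sg5 replicates 2 and 3 differed by 0.428. In the same RNA, sg6 replicate 1 lay 0.519 and 0.669 from the other sg6 libraries, which differed by 0.411. Deviations from the line means correlated at 0.638 between replicate 1 of sg5 and of sg6, so the pattern was not confined to sg5. Results for the members that rest on sg5 replicate 1 are given with and without it, alone or together with sg6 replicate 1. WT replicate 1 was kept in these fits. Markers of MPCs summed to 1960 to 2980 CPM over 8 genes in the polyA libraries, so the defining markers of the labelled cell type were present. Of the other marker lists, the 4 endothelial genes summed to 1.29 to 1.99 CPM for WT libraries, 9.43 to 14.2 for sg5 libraries and 8.44 to 11 for sg6 libraries, the 5 adipocyte genes to 16.6 to 25.0, 53.6 to 77.5 and 42.2 to 55.6 CPM, the 6 chondrocyte genes to 863 to 1260, 1140 to 1740 and 1390 to 2360 CPM, and the 4 epithelial genes to 2.89 to 6.11, 0.84 to 1.62 and 0.311 to 0.723 CPM. The 5 blood genes stayed between 3.48 and 5.52 CPM in all polyA libraries, with *Adgre1* at 0. The part of these differences in the results for the bone genes was not tested. In bulk RNA, fewer cells of a type and less RNA per cell cannot be told apart.

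In the polyA libraries, 3 bone genes fell in both *Atrx* KO clones: the phosphate-regulating endopeptidase *Phex*, the homeobox gene *Msx2* and the osteoblast factor *Sp7*. No member passed upward. *Runx2*, the lineage's master regulator, stayed within 0.25 log2 units of WT in both clones, and *Spp1* was lower by a smaller margin. A gene passed when its log2 fold change exceeded 1 in size and its p in edgeR's quasi-likelihood test, adjusted by Benjamini-Hochberg, was below 0.05. The adjustment ran over all 15480 genes with enough counts to test, among them 8 of the 10 members (*Alpl* and *Ibsp* had too few). Of these 8, 3 passed downward in sg5, where 6.96% of all tested genes did so and 3.18% passed upward, and the same 3 passed downward in sg6, where 7.54% of genes did so and 3.64% passed upward. Of all genes, 5.48% passed downward in both clones, which share their WT libraries. The median log2 fold change of the 8 members was -0.49 in sg5 and -0.53 in sg6, beside -0.0024 and -0.0061 over all genes. All 3 libraries of sg5 lay below all 3 of WT for 5 of the 8 members, against 20.3% of genes, and those of sg6 for 4, against 20.0% of genes. Between the clones, no member passed, where 2.61% of genes did in either direction. The plot of polyA levels shows each library.

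**Figure D1:**
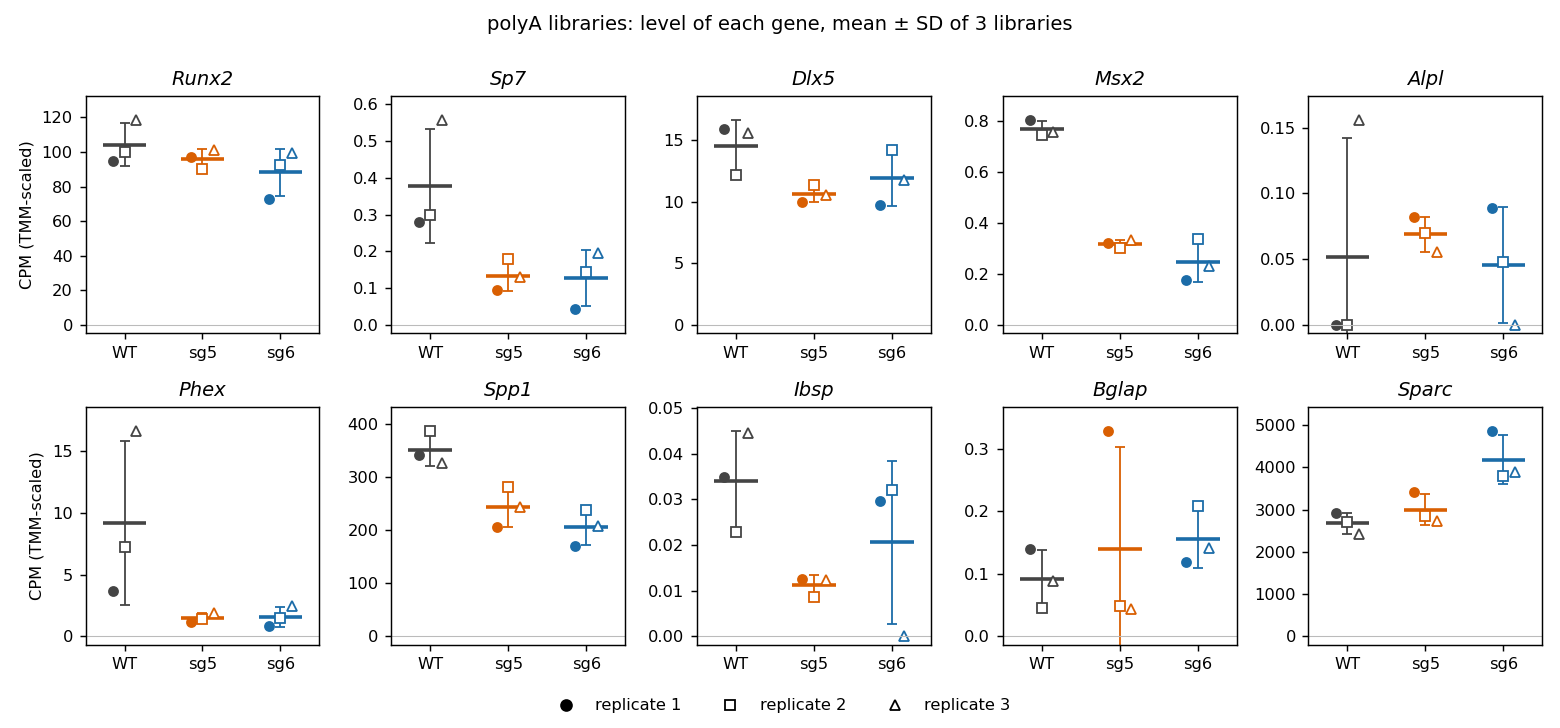
Level of each of the 10 genes in the polyA libraries, in CPM on TMM-scaled library sizes (y axis, from 0), for WT, sg5 and sg6; symbols are single libraries by replicate number, thick lines the means and thin bars the SD of 3 libraries, cut at 0. *Sp7*, *Msx2* and *Phex* lie lower in every clone library than in any WT library, *Runx2* overlaps between lines, and *Alpl* and *Ibsp* are near 0 throughout.

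Among the transcription factors, *Runx2* (Entrez 12393, chr17:44495987-44814797, minus strand, GRCm38) was expressed at 94.7, 99.7 and 118 CPM in WT, 97.0, 90.0 and 101 CPM in sg5, and 73.1, 92.5 and 99.1 CPM in sg6. The lines overlapped. The log2 fold change was -0.12 ± 0.13 in sg5 (adjusted p = 0.532) and -0.24 ± 0.13 in sg6 (adjusted p = 0.183), and neither clone passed the threshold in any of the 20 alternatives computed for these libraries. Antisense and other genes overlap the *Runx2* locus, and the counting is not stated to use strand, so their reads cannot be told apart from its own.

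*Sp7* (Entrez 170574, chr15:102356603-102367035, minus strand) was rare in every line. It had 8, 26 and 25 counts in WT, 15, 41 and 21 in sg5, and 3, 9 and 11 in sg6, in libraries of unequal depth. Scaled to depth, WT held 0.280, 0.298 and 0.556 CPM, sg5 held 0.0947, 0.179 and 0.130 CPM, and sg6 held 0.0444, 0.145 and 0.195 CPM. Each clone library lay below each WT library. *Sp7* fell 2.74-fold in sg5 (log2 fold change -1.46 ± 0.44, adjusted p = 0.0375) and 2.99-fold in sg6 (-1.58 ± 0.51, adjusted p = 0.0425). With so few reads the call was fragile: it was lost in 6 of 9 fits that left out 1 library in sg5 (WT replicate 2 or 3, sg5 replicate 1, 2 or 3, sg6 replicate 2), with adjusted p up to 0.148, and in 6 of 9 in sg6 (WT replicate 2 or 3, sg5 replicate 2 or 3, sg6 replicate 1 or 2), with adjusted p up to 0.135, while the log2 fold change stayed between -1.09 and -1.73 in sg5 and between -1.16 and -2.00 in sg6.

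*Msx2* (Entrez 17702, chr13:53466881-53472780, minus strand), which encodes a homeodomain repressor that acts downstream of BMP signals, gave the tightest replicates of the 3. WT held 0.803, 0.744 and 0.756 CPM, sg5 held 0.322, 0.301 and 0.333 CPM, and sg6 held 0.178, 0.337 and 0.231 CPM. All clone libraries lay under all WT libraries by a wide margin. *Msx2* fell 2.40-fold in sg5 (-1.26 ± 0.23, adjusted p = 0.00344) and 3.07-fold in sg6 (-1.62 ± 0.25, adjusted p = 0.00136), and it passed in both clones whichever library was left out. The difference between the clones did not pass (sg5 minus sg6 0.36 ± 0.25, adjusted p = 0.546).

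Its partner *Dlx5* (Entrez 13395, chr6:6877801-6882068, minus strand) was expressed at a higher level. WT held 15.9, 12.2 and 15.6 CPM, sg5 held 10.0, 11.4 and 10.6 CPM, and sg6 held 9.76, 14.2 and 11.8 CPM. The 3 sg5 libraries lay below WT, and those of sg6 overlapped it. The log2 fold change was -0.45 ± 0.16 in sg5 (adjusted p = 0.0635) and -0.29 ± 0.16 in sg6 (adjusted p = 0.206), neither past the threshold.

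The matrix and mineralization genes divided by level. Per kilobase of exon, WT polyA libraries held 708 CPM of *Sparc*, 213 of *Spp1*, 1.46 of *Phex*, 0.148 of *Bglap*, 0.0165 of *Ibsp* and 0.0129 of *Alpl*, with 11.8 for *Runx2*, 6.43 for *Dlx5*, 0.234 for *Msx2* and 0.111 for *Sp7* on the same scale. In this order the libraries of *Bglap* overlapped those of *Sp7*, and those of *Ibsp* overlapped those of *Alpl*. *Ibsp* and *Alpl* were at the limit of detection. *Ibsp* (Entrez 15891, chr5:104299287-104311472, plus strand) had 0 to 2 counts in each polyA library and none in any rRNA-depleted library, which allows up to 3 counts per library. *Alpl* (Entrez 11647, chr4:137741731-137796384, minus strand) had 0, 0 and 7 counts in WT, 13, 16 and 9 in sg5 and 6, 3 and 0 in sg6, and 1 count in all rRNA-depleted libraries together. A difference in either gene was not detectable at this depth. *Sparc* and *Spp1*, which many mesenchymal cells make, were thus abundant, and *Bglap*, *Ibsp*, *Alpl* and *Sp7* were rare.

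*Phex* (Entrez 18675, chrX:157162075-157415286, minus strand) showed the largest change of the 8 members tested. WT held 3.70, 7.27 and 16.6 CPM, sg5 held 1.19, 1.38 and 1.92 CPM, and sg6 held 0.799, 1.46 and 2.43 CPM. The WT libraries spread over a wider range than the clones, and even the lowest of them lay above the highest clone library. In each line *Phex* rose from replicate 1 to replicate 3, and the main fit did not pair libraries by number. *Phex* fell 6.16-fold in sg5 (-2.62 ± 0.55, adjusted p = 0.00765) and 5.93-fold in sg6 (-2.57 ± 0.56, adjusted p = 0.00792). The call held in both clones without any 1 library. Leaving out WT replicate 3, the highest, gave the smallest change, -1.89 in sg5 (adjusted p = 0.0173) and -1.83 in sg6 (adjusted p = 0.0178).

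*Spp1* (Entrez 20750, chr5:104435111-104441053, plus strand), which encodes osteopontin, was lower in both clones by less than the fold required. WT held 342, 386 and 327 CPM, sg5 held 207, 282 and 244 CPM, and sg6 held 171, 239 and 208 CPM. No clone library reached the WT range. The log2 fold change was -0.53 ± 0.15 in sg5 (adjusted p = 0.027) and -0.77 ± 0.15 in sg6 (adjusted p = 0.00402). *Spp1* therefore passed the adjusted p but not the fold change, and in sg5 the adjusted p rose to 0.0949 without WT replicate 2, 0.0806 without sg5 replicate 1 and 0.0721 without sg5 replicate 3. Of its 31-base transcript words, 14.3% are shared with *Gm42793*, a gene annotated over it on the same strand, so part of its counts is uncertain.

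*Sparc* (Entrez 20692, chr11:55394159-55420080, minus strand) was the only member with a higher level in a clone beyond the replicate spread. WT held 2919, 2702 and 2421 CPM, sg5 held 3415, 2857 and 2726 CPM, and sg6 held 4854, 3803 and 3903 CPM. The sg6 libraries lay above all WT libraries, and those of sg5 overlapped WT. The log2 fold change was 0.64 ± 0.14 in sg6 (adjusted p = 0.00646), short of the fold required, and 0.16 ± 0.13 in sg5 (adjusted p = 0.412). The difference between the clones, sg5 minus sg6, was -0.48 ± 0.14 (adjusted p = 0.0875).

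Osteocalcin is encoded in the mouse by *Bglap* and the adjacent *Bglap2*, with the related *Bglap3* beside them on chromosome 3 (88368616 to 88384466 in GRCm38). These genes cannot be counted cleanly apart: 62.9% of the 31-base words of *Bglap* transcripts and 95.2% of those of *Bglap2* occur in another gene, against 22.5% for *Bglap3*. *Bglap* (Entrez 12096, chr3:88383495-88384466, minus strand) had 4 counts in each WT library, 52, 11 and 7 in sg5 and 8, 13 and 8 in sg6. *Bglap2* held 0.454, 0.721 and 1.74 CPM in WT, 3.23, 0.476 and 0.506 CPM in sg5 and 1.35, 0.820 and 1.51 CPM in sg6. In both genes sg5 replicate 1 was the highest library and sg5 replicates 2 and 3 lay in or near the WT range. Neither gene passed (*Bglap* 0.78 ± 0.95 in sg5, adjusted p = 0.586, and 0.99 ± 1.03 in sg6, adjusted p = 0.505; *Bglap2* 0.51 ± 0.77 and 0.32 ± 0.80). *Bglap3* was 0.56 ± 0.18 higher in sg5 (adjusted p = 0.0505) and 0.34 ± 0.19 higher in sg6 (adjusted p = 0.201).

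In rRNA-depleted RNA, which was prepared and counted separately, *Phex* was again lower in both clones and was the only member to pass, with *Spp1* in sg5 passing under some other settings given below. *Runx2*, *Dlx5* and *Sparc* did not pass, and *Spp1* split the sg5 libraries. There were 5 members with enough counts to test, and 1 of them passed downward in sg5, where 4.31% of the 13303 genes tested did so and 3.04% passed upward. Again 1 passed downward in sg6, where 3.59% of genes did so and 2.16% passed upward. The same gene passed in both clones, as 2.62% of genes did. In sg5 against sg6 no member passed, where 1.48% of genes did. The median log2 fold change of the 5 members was -0.25 in sg5 and -0.27 in sg6, beside 0.080 and 0.038 over all genes. The p-values were adjusted over 56086 features, transposable element loci included, and levels of the 2 kinds of library are set side by side without a test between them.

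*Phex* held 3.15, 1.84 and 4.07 CPM in the rRNA-depleted WT libraries, 1.23, 0.279 and 0.387 CPM in sg5 and 0.215, 0.745 and 0.613 CPM in sg6. Each clone library lay below each WT library. The log2 fold change was -2.21 ± 0.53 in sg5 (adjusted p = 0.0312) and -2.51 ± 0.54 in sg6 (adjusted p = 0.0202), a 4.63-fold and a 5.68-fold decrease beside the 6.16-fold and 5.93-fold of the polyA libraries. The counts were low, at most 146 in a library. The call was lost in sg5 without WT replicate 1 or 3 or sg5 replicate 2 or 3 (adjusted p up to 0.142) and in sg6 without WT replicate 1 or 3 or sg6 replicate 1 or 3 (adjusted p up to 0.119), with log2 fold changes that stayed at or below -1.84. Without sg5 replicate 1, *Phex* was -3.10 in sg5 (adjusted p = 0.0025). Of the 5 members tested in both kinds of library, *Phex* alone passed in all 4 comparisons with WT, as the plot of log2 fold changes shows. *Msx2* and *Sp7* could not be tested in rRNA-depleted RNA.

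**Figure D2:**
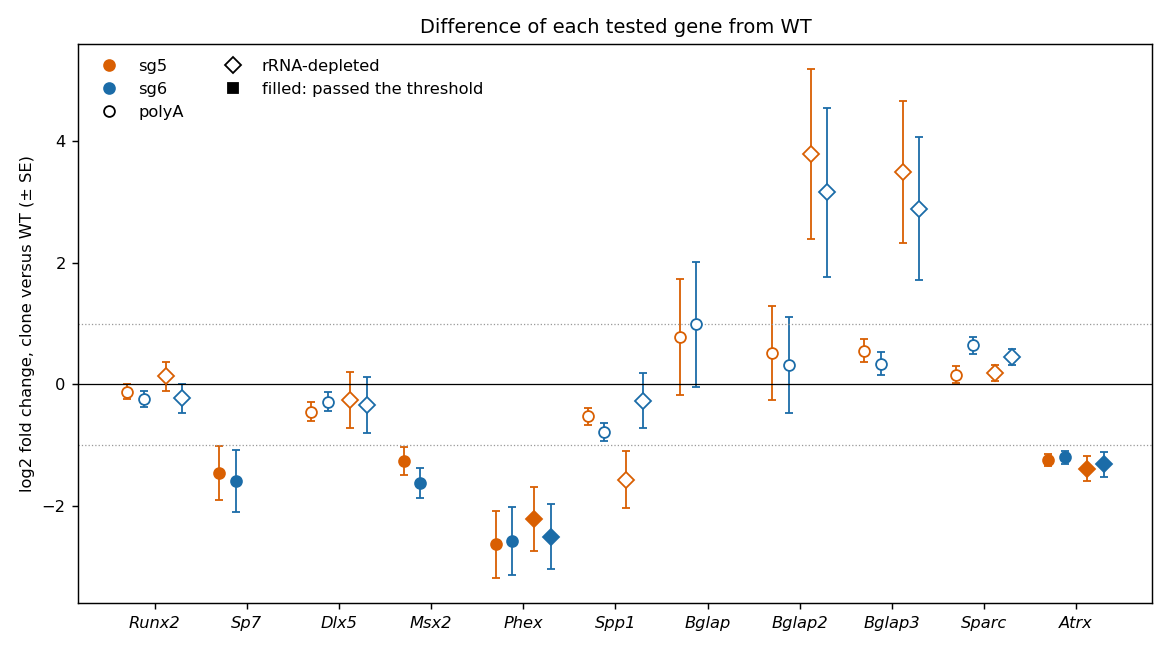
Log2 fold change of each clone against WT with its SE (y axis) for the members that could be tested, with *Bglap2*, *Bglap3* and the targeted gene *Atrx*; circles are polyA and diamonds rRNA-depleted libraries, orange is sg5 and blue sg6, filled symbols passed the threshold and dotted lines mark a log2 fold change of 1 in either direction. *Phex* lies between -2.21 and -2.62 in all 4 comparisons, and *Sp7* and *Msx2* have symbols for polyA only because their rRNA-depleted counts were too low to test.

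*Spp1* held 193, 232 and 197 CPM in the rRNA-depleted WT libraries and 149, 205 and 162 CPM in sg6. In sg5 it held 149 CPM in replicate 1 but 28.7 and 32.1 CPM in replicates 2 and 3. The sg6 libraries overlapped WT, and sg5 split between a level like that of sg6 and a level several times lower. The log2 fold change was -1.57 ± 0.47 in sg5 (adjusted p = 0.0868) and -0.27 ± 0.46 in sg6 (adjusted p = 0.892). Without sg5 replicate 1 it became -2.73 in sg5 (adjusted p = 8.62e-07) and the difference between sg5 and sg6 became -2.51 (adjusted p = 4.31e-06), against -1.30 ± 0.46 with all libraries (adjusted p = 0.454). With all libraries, *Spp1* passed in sg5 when the replicate number was a block (-1.84, adjusted p = 0.0304), when p was adjusted over genes alone (adjusted p = 0.0336) and without the filter on low counts (adjusted p = 3.76e-12). The unfiltered fit took in 947507 features against 56086, and why its p was so small beside such a split was not tested. In polyA RNA, sg5 replicate 1 held 207 CPM of *Spp1* and was not high. No polyA library of sg5 lay several times below WT, and the log2 fold change there was -0.53 ± 0.15. Whether the low level of replicates 2 and 3 or the higher level of replicate 1 stands for the clone was not tested. It cannot be read from these 3 rRNA-depleted libraries.

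The osteocalcin genes split by replicate in the same RNA. *Bglap2* held 0.613, 0.111 and 0.223 CPM in WT, 11.1, 1.17 and 0.309 CPM in sg5 and 7.71, 0.224 and 0.307 CPM in sg6. *Bglap3* held 0.482, 0.258 and 0.223 CPM in WT, 9.04, 0.947 and 0.541 CPM in sg5 and 6.20, 0.410 and 0.438 CPM in sg6. *Bglap* itself had 3, 1 and 2 counts in WT, 12, 1 and 1 in sg5 and 9, 0 and 1 in sg6. Replicate 1 was thus the highest library of each line in all 3 genes, WT included, with smaller differences in WT. The log2 fold changes of *Bglap2* (3.79 ± 1.39 in sg5 and 3.16 ± 1.39 in sg6) and *Bglap3* (3.49 ± 1.17 and 2.89 ± 1.18) were large with wide errors and did not pass (adjusted p = 0.172 and 0.363, and 0.132 and 0.305). With replicate 1 of both clones left out, *Bglap2* was 1.24 ± 0.70 in sg5 (adjusted p = 0.435) and -0.19 ± 0.78 in sg6 (adjusted p = 0.960), and *Bglap3* was 1.23 ± 0.54 in sg5 (adjusted p = 0.271) and 0.45 ± 0.56 in sg6 (adjusted p = 0.837). The plot of rRNA-depleted levels shows this split.

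**Figure D3:**
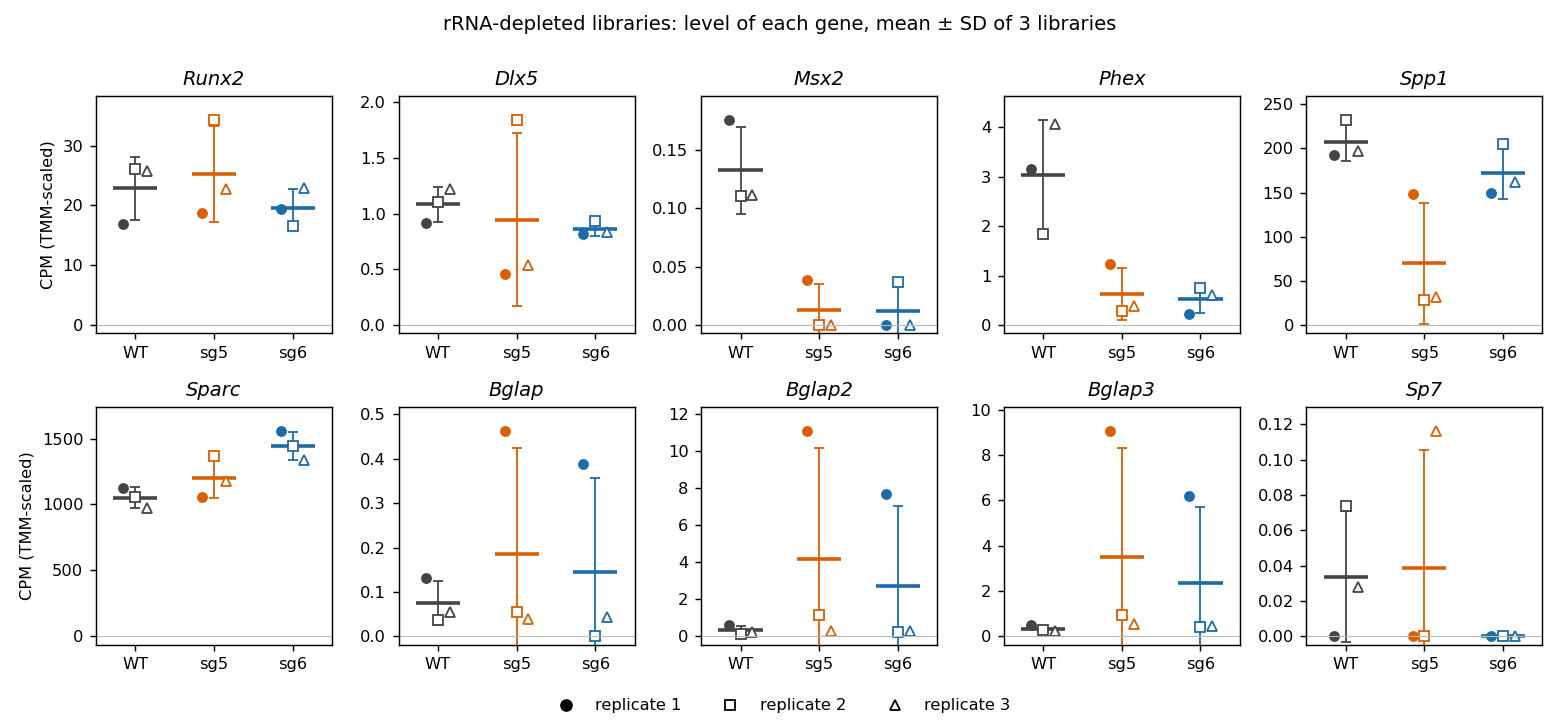
Level in the rRNA-depleted libraries, in CPM on TMM-scaled library sizes (y axis, from 0), of the members with counts other than *Alpl*, and of *Bglap2* and *Bglap3*; symbols, lines and bars as for the polyA levels. Replicate 1 (filled circles) is far above the other clone libraries for *Bglap*, *Bglap2* and *Bglap3*, and in sg5 also for *Spp1*.

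The remaining members gave little in this RNA. *Runx2* held 16.8, 26.1 and 25.8 CPM in WT, 18.7, 34.3 and 22.7 CPM in sg5 and 19.3, 16.6 and 22.9 CPM in sg6, with overlapping lines (0.14 ± 0.24, adjusted p = 0.837, and -0.23 ± 0.24, adjusted p = 0.793). *Dlx5* had 12 to 44 counts per library and did not pass (-0.25 ± 0.46 and -0.34 ± 0.46). *Sparc* held 1126, 1060 and 971 CPM in WT, 1059, 1367 and 1181 CPM in sg5 and 1554, 1440 and 1337 CPM in sg6, again with all sg6 libraries above WT (0.46 ± 0.14, adjusted p = 0.110). *Msx2*, one of the genes that fell in polyA RNA, was too rare to test: it had 4, 3 and 4 counts in WT, 1, 0 and 0 in sg5 and 0, 1 and 0 in sg6. *Sp7* had 0 to 3 counts per library.

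Because each clone is a single line, the genes around each member were read as well. None of the 10 tested genes nearest to *Phex*, 5 on each side, passed in either clone in either kind of library. Their median log2 fold change in polyA RNA was -0.02 in sg5 and -0.01 in sg6. Tested genes were sparse here: in polyA RNA the nearest lay 28.6 kb away and the farthest 3330 kb. On the side of lower coordinates the closest was at -1540 kb, so the near surroundings of *Phex* were read from few genes. On chromosome X as a whole, which also carries *Atrx*, the median over 527 genes was -0.01 and -0.07, with 12.1% and 14.8% of genes passing downward. None of the 10 neighbours of *Msx2* or of *Sp7* passed in either clone, with polyA medians of 0.06 and 0.29 around *Msx2* and -0.17 and -0.03 around *Sp7*. Whole chromosomes gave similar medians, -0.06 and 0.24 on chromosome 13 (*Msx2*) and -0.16 and -0.03 on chromosome 15 (*Sp7*). On chromosome 11, which carries *Sparc*, they were -0.26 and -0.16. At *Spp1*, in polyA RNA, all 10 neighbours were below 0 in sg5, some only slightly, and the chromosome 5 medians were -0.09 and -0.22. Of them, 3 passed downward in sg5 and 4 in sg6, beside 6.96% and 7.54% of all genes. These were *Sparcl1*, *Gbp4* and *Gbp9* in both clones and *Dmp1* in sg6, genes named here after their values were seen. They lay at -321, 675, 635 and -221 kb from *Spp1*, a minus marking lower coordinates. The nearest neighbour, at 12.9 kb, was at -0.22 and -0.30 and did not pass. *Sparcl1*, a relative of *Sparc* in the same cluster, was at -7.21 ± 0.50 in sg5 and -7.67 ± 0.55 in sg6 in polyA RNA. Around *Dlx5* in polyA RNA, where 3.18% and 3.64% of all genes passed upward, 3 of the 10 neighbours did so in sg5 and 2 in sg6. Of these, the DLX gene *Dlx6* had 0, 0 and 2 counts in WT, 54, 73 and 39 in sg5 and 12, 16 and 11 in sg6 in polyA RNA, and *Dync1i1*, named after its values were seen, was at 4.63 ± 0.52 and 2.85 ± 0.62. In polyA RNA, 1 neighbour of *Runx2*, 1 of *Alpl* and 1 of *Bglap* passed downward in each clone, 2 of *Sparc* passed downward in sg5 and 1 in sg6, and 1 of *Bglap* passed upward in sg6. *Ibsp* lies beside *Spp1* and shares its called neighbours other than *Gbp4*. In rRNA-depleted RNA, 3 neighbours of *Spp1* passed downward in each clone, and around *Dlx5* 2 passed upward and 2 downward in sg5 and 1 each way in sg6. There, 1 neighbour each way passed in sg5 around *Runx2* and around *Alpl* and 1 downward around *Sparc*, and in sg6 1 passed downward around *Alpl*.

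More genes of the wider osteogenic program passed upward than downward in polyA RNA. Of 104 other genes in 4 lists (transcription factors, matrix and mineralization, BMP inputs and bone turnover signals), 92 could be tested in polyA RNA, and 11 passed upward and 3 downward in sg5, beside 3.18% and 6.96% of all genes. In sg6, 11 passed upward and 8 downward, beside 3.64% and 7.54% of all genes. Their median log2 fold change was 0.35 in sg5 and 0.34 in sg6. Of them, 10 passed upward in both clones, as 2.18% of all genes did, and 3 downward in both, as 5.48% did. By list, the median was 0.27 and 0.32 for 28 transcription factors, 0.40 and 0.36 for 33 matrix and mineralization genes, 0.40 and 0.34 for 16 BMP inputs and -0.03 and 0.08 for 15 turnover signals. The lists were chosen with earlier results of these data known, and their counts are a description.

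**Figure D4:**
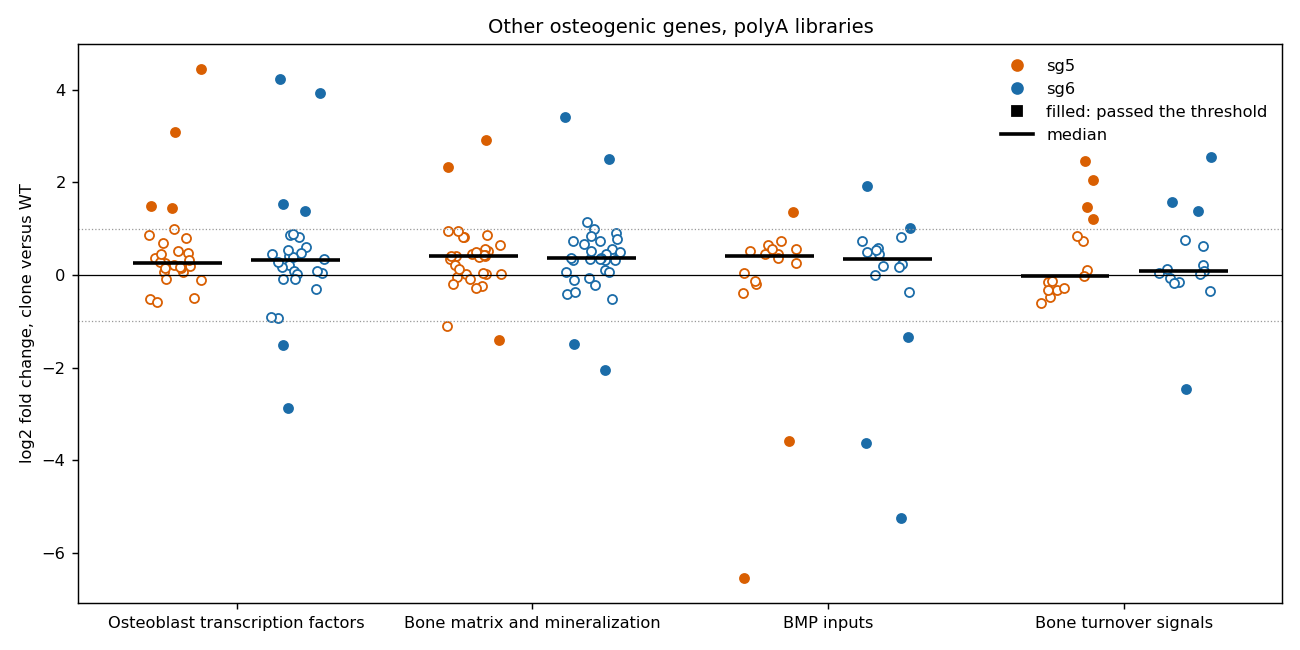
Log2 fold change against WT in polyA RNA (y axis) of the tested genes of 4 osteogenic lists (x axis), orange for sg5 and blue for sg6; filled points passed the threshold, black lines are medians and dotted lines mark a log2 fold change of 1 in either direction. Medians lie above 0 in 3 lists in both clones.

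Among the BMP inputs, the secreted BMP antagonist *Nog* (noggin) fell in both clones. It held 1.43, 1.2 and 0.801 CPM in WT, at most 0.107 CPM in sg5 and at most 0.133 CPM in sg6 in polyA RNA, a log2 fold change of -3.59 ± 0.32 in sg5 (adjusted p = 7.3e-05) and -3.62 ± 0.36 in sg6 (adjusted p = 0.00013). It also passed in rRNA-depleted RNA, at -4.53 ± 0.59 and -4.26 ± 0.57. *Smad7*, an intracellular inhibitor of TGF-β and BMP signaling, rose in polyA RNA (1.35 ± 0.39 and 1.93 ± 0.40) and did not pass in rRNA-depleted RNA (1.09 ± 0.49, adjusted p = 0.272, and 0.96 ± 0.48, adjusted p = 0.452), where it was 1.57 ± 0.24 and 1.23 ± 0.24 and passed in both clones with replicate 1 of both left out.

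Among the other transcription factors, *Dlx6*, *Hey1* (a Notch target), *Runx3* and *Foxc2* rose in both clones in polyA RNA. *Runx3*, a relative of *Runx2*, lay at 12.1 to 20.5 CPM in the WT libraries, against 35.9 to 52.2 CPM for sg5 and 44.0 to 55.7 CPM for sg6, with log2 fold changes of 1.45 ± 0.21 and 1.54 ± 0.21. *Foxc2* was 1.5 ± 0.15 and 1.38 ± 0.15 higher. *Hey1* was 3.09 ± 0.74 and 4.24 ± 0.75 higher, from 0.156 to 0.245 CPM in WT. In rRNA-depleted RNA, *Foxc2* (1.16 ± 0.26) and *Hey1* (2.58 ± 0.65) passed in sg5 and not in sg6, and the difference between the clones did not pass for either (adjusted p = 0.857 and 0.839). *Runx3* did not pass there (2.00 ± 0.59, adjusted p = 0.086, and 1.35 ± 0.59, adjusted p = 0.355). With replicate 1 of both clones left out, *Runx3* (2.49 ± 0.37 and 1.68 ± 0.37) and *Hey1* (3.13 ± 0.36 and 2.17 ± 0.37) passed in both clones, and *Foxc2* in sg5 (1.41 ± 0.23).

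Matrix and turnover genes that rose in both clones in polyA RNA were *Omd*, *Thbs1*, *Pth1r*, *Tnfrsf11b* and the cell adhesion gene *Cdh2* (1.21 ± 0.10 and 1.57 ± 0.10), which is named although it fell outside the first 12 by size of change. *Omd* (osteomodulin), a mineral-binding proteoglycan of bone, held 12.3, 16.0 and 11.2 CPM in WT, 73.7, 70.2 and 56.1 CPM in sg5 and 77.8, 76.3 and 69.8 CPM in sg6 in polyA RNA, with no overlap. Its log2 fold change was 2.33 ± 0.15 and 2.5 ± 0.15 there, and 1.90 ± 0.31 and 1.91 ± 0.31 in rRNA-depleted RNA, past the threshold each time. *Pth1r*, the parathyroid hormone receptor of osteoblasts, passed upward in all 4 comparisons too, at 2.46 ± 0.21 and 2.55 ± 0.22 in polyA RNA and 2.07 ± 0.40 and 1.74 ± 0.40 in rRNA-depleted RNA. Without replicate 1 of both clones, *Omd* (2.25 ± 0.20 and 1.89 ± 0.20) and *Pth1r* (2.48 ± 0.29 and 1.79 ± 0.29) still passed in the latter. *Thbs1* (thrombospondin 1) was 2.92 ± 0.52 and 3.40 ± 0.53 higher in polyA RNA, and *Tnfrsf11b* (osteoprotegerin, the decoy receptor that limits osteoclast formation) 1.48 ± 0.22 and 1.38 ± 0.22. Neither passed in rRNA-depleted RNA, where *Thbs1* was 3.17 ± 0.83 (adjusted p = 0.0505) and 2.26 ± 0.80 (adjusted p = 0.212) and *Tnfrsf11b* 0.79 ± 0.19 and 0.78 ± 0.19. With replicate 1 of both clones left out, *Thbs1* passed there in both clones (3.73 ± 0.416 and 2.635 ± 0.405). *Tnfrsf11b* then passed in sg5 (1.013 ± 0.155) and not in sg6 (0.896 ± 0.155). *Tnc* (tenascin C) fell in polyA RNA (-1.40 ± 0.43 and -2.06 ± 0.44) but was 0.26 ± 0.24 in sg5 and -0.83 ± 0.24 in sg6 in rRNA-depleted RNA, where it did not pass.

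In rRNA-depleted RNA, 86 genes of the lists could be tested, and 9 passed upward and 3 downward in sg5, beside 3.04% and 4.31% of all genes. In sg6, 4 passed upward and 4 downward, beside 2.16% and 3.59% of all genes. *Omd*, *Pth1r* and *Lox*, the last a collagen cross-linking enzyme named after its values were seen, were the 3 that passed upward in both clones, as 1.36% of all genes did. With replicate 1 of both clones left out and that of WT kept, 88 could be tested. In sg5, 21 passed upward and 5 downward, beside 3.91% and 5% of all genes. In sg6, 7 passed upward and 4 downward, beside 2.35% and 4.42%. WT alone held a replicate 1 library in this fit, so line and replicate number cannot be told apart in these counts. The 8 osteoblast and osteocyte markers, with *Phex* and *Sp7* among them, summed to 5.90 to 19.1 CPM for WT libraries, 2.44 to 3.23 for sg5 libraries and 1.67 to 3.75 for sg6 libraries in polyA RNA. *Phex* alone held 3.70 to 16.6 CPM of the WT sum. In rRNA-depleted RNA these markers summed to 2.14 to 4.73 CPM for WT libraries, 0.669 to 2.04 for sg5 libraries and 1.1 to 1.42 for sg6 libraries, with *Ibsp* and *Sost* at 0.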

How the data were processed

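RNA was sequenced from WT, sg5 and sg6 MPCs, 3 libraries each, in 2 kinds. For polyA libraries the authors deposited expected counts per gene, estimated with Salmon against mm10 known genes and imported with tximport. For rRNA-depleted libraries the authors deposited counts of genes and transposable element (TE) loci, from STAR alignments counted with TElocal, which shares reads that map to several places. The strand setting is not given in the sources used here. The expected counts held whole numbers and needed no rounding.

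Groups follow the sample labels. Each table was analysed separately in edgeR 4.0.16 (R 4.3.3, limma 3.58.1): features were filtered (minimum count 10, minimum total 15), scaled by TMM, and tested by the quasi-likelihood test with all 9 libraries and 3 groups, without a block. Adjusted p-values are Benjamini-Hochberg over all features tested. CPM used TMM-scaled library sizes, errors are SE for log2 fold changes, and a count of 0 was taken to allow 3 counts. Library totals ranged from 20.1 to 235 in units of 1e6 counts, and limits on counts cover counting error only.

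Alternatives were DESeq2 1.42.0, DESeq2 size factors, other filters and thresholds, thinned counts, genes without TE loci, the 2 compared groups alone, chromosome centring, a replicate block and each library left out. Leaving out replicate 1 of sg5 and sg6 together was chosen after seeing the data. That fit kept WT replicate 1, so replicate numbers were not balanced between the lines. In simulated counts for sg5 against WT, 94 of 100 genes changed by a log2 of 1.5 and 100 of 100 changed by 3 were recovered in polyA (15480 genes). In rRNA-depleted libraries 22 and 76 of 100 changed features were recovered. These were drawn from genes and TE loci together (56086 features, 13303 of them genes), so they are not rates for genes alone.

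The members and gene lists were chosen with earlier results of these data known. Named are the members, *Atrx*, list genes that passed the same way in both polyA comparisons (at most 12, by the smaller change), genes with a profile like a called member, and neighbours that passed in the direction of a called member. A listed gene that met this rule is not reported here. Figures were drawn with matplotlib 3.10.9.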

Additional observations from a re-analysis of the deposited data

How the results depend on the processing

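Counts of members that passed were 3 in each clone in polyA RNA and 1 in each clone in rRNA-depleted RNA, with 0 between the clones. In polyA RNA, testing whether the log2 fold change exceeded 1 left 0 in either clone, a log2 fold change beyond 2 with adjusted p below 0.01 left 1 (*Phex*), and adjusted p alone gave 4 in sg5 and 5 in sg6 (*Sparc* among them, upward), beside 27% and 30.7% of all genes; leaving out single libraries gave 2 to 3 in either clone. In rRNA-depleted RNA, a minimum of 10 counts in every library (under which *Phex* was not tested), the same test and the stricter threshold each left 0 in either clone, and thinned counts left 0 in sg5. No filter, p-values adjusted over genes alone, the replicate block, and leaving out replicate 1 of both clones each gave 2 in sg5, and no filter or leaving out both libraries gave 1 between the clones. Leaving out single libraries gave 0 to 2 in sg5, 0 to 1 in sg6 and 0 to 1 between the clones. The cause of these shifts was not tested. Except for adjusted p alone, the share of all genes that passed under each alternative is not given, so these counts describe the members only.

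With the replicate block, 3 members passed in each clone in polyA RNA, and in rRNA-depleted RNA *Spp1* joined *Phex* in sg5 (-1.84, adjusted p = 0.0304, edgeR). Same-numbered libraries had a mean correlation of deviations of 0.26 in polyA and 0.294 in rRNA-depleted RNA, with lowest values of 0.0257 and -0.229. Libraries of different number had means of -0.127 and -0.145. These add little, since deviations within a line cancel out and tie them to the means of same-numbered libraries. In rRNA-depleted RNA, WT replicate 1 correlated at 0.316 with sg5 replicate 1 and at 0.364 with sg6 replicate 1. The main fits did not pair libraries by number, so any replicate effect shared by the lines stayed in their spread. As a hint from the data, 9 of 9 polyA and 6 of 9 rRNA-depleted libraries correlated best with their own number.

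Of 806 values for single members, 741 kept their direction and side of the threshold, 36 no longer passed, 11 newly passed and 18 changed sign, none of which had passed. Sign changes were between the clones for *Phex* in polyA RNA (0.0597 with the block, -0.37 to 0.41 over single libraries left out) and in rRNA-depleted RNA (-0.996 without both replicate 1 libraries, -0.64 to 0.66), *Dlx5* in rRNA-depleted RNA (-0.0228 with the block and -0.0206 centred on its chromosome, -0.76 to 0.41), *Sp7* (-0.30 to 0.54) and *Bglap* (-0.38 to 0.24) in polyA RNA, and against WT in sg5 for *Dlx5* (0.10 without both libraries, -1.06 to 0.12) and *Runx2* (-0.0896 to 0.35) in rRNA-depleted RNA. *Sp7* was not tested in polyA RNA with at least 10 counts in every library or with thinned counts, and its adjusted p was 0.0619 in sg6 with the 2 compared groups alone. *Msx2* and *Sp7* had too few rRNA-depleted counts for a second reading.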

Other observations

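Genes with a profile like that of a member that passed were sought over all 18 libraries. No such member reached the average log2 CPM of 1 in both kinds of library that had been set. With the minimum lowered to 0, a choice made after seeing the data, *Phex* qualified, and the genes nearest to it among 11508 were *Septin6* (root mean square difference of 0.554 in log2 CPM centred on WT), *Adam19* (0.571) and *Plag1* (0.645).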
